A study of Mus musculus with 6 samples.

Results

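Amino acid transporters were followed in lamina propria macrophages, sorted from the colon of transgenic mice that overexpress E4BP4 in macrophages and of wild type mice. E4BP4 is a transcription factor encoded by Nfil3. Members were the rows of the deposited TPM table (a transcript level corrected for length and library depth) whose symbol begins with Slc1a, Slc3a, Slc6a, Slc7a, Slc36a, Slc38a or Slc43a and a number. Slc7a1, Slc7a2 and Slc7a11 were not taken. This gave 63 of 25124 rows. The label holds for most of them, but not for all: 3 rows carry the ending os and name neighbouring genes (Slc6a19os, Slc7a6os and Slc36a1os). The Slc6 family also holds carriers of monoamines, creatine and taurine, and Slc43a3 carries purine bases.

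There were 3 transgenic (TG) and 3 wild type (WT) libraries of C57BL/6 mice, 8 weeks old by the series text. All 6 came from mice given 2.0% dextran sulfate sodium (DSS), which injures the colonic epithelium, in the water for 7 days. Plain water followed for 7 days, and cells were collected on day 14, so there was no group without DSS. The labels give neither the promoter that drives the transgene nor the number of mice behind a library, so the p-values measure how these libraries vary, and that variation may be technical.

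Cells take up and exchange amino acids through carriers of several families. The heteromeric carriers pair a heavy chain, Slc3a2 (CD98hc, also called 4F2hc) or Slc3a1, with a light chain of the Slc7 family that does the transport. Slc1a5 and the Slc38 family move glutamine and small neutral amino acids. Slc36a1 and several Slc38 carriers work at the lysosome, where protein taken up by phagocytes is broken down. Macrophages depend on this supply for protein synthesis, for glutathione and for mTORC1, the kinase complex that senses amino acids at the lysosome.

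The promoters shown here are those of called members whose window, 250 bases before to 50 after a transcript start (RefSeq, GRCm38.p6), held a searched motif, together with Slc38a7, a lysosomal carrier with an E-box. Windows were found for 46 of 63 members and for 15 of the 22 that passed the filter on level. The motif TTANGTAA, which E4BP4 and its competitors bind, was in 0 of the 21 windows of those 15 members, against 2.32% of all 32851 windows, searched on both strands. At so low a share, 21 windows are too few to show a lack of the motif. TGATGNAA, the composite bound by Atf4, was in 3.97% of all windows and in 2 of the 21 windows of these members, both of Slc7a7. Those 2 windows overlap and share a match, so they are not separate promoters. ACGTG, the core of the hypoxia response element, was in 19.62% of all windows and in 8 of these 21, which belong to 6 of the 15 members. Among the 8, windows of Slc7a6 and of Slc7a7 overlap and share a match in the same way. CACGTG, an E-box that contains ACGTG and was added after the values were seen, was in 7.15% of all windows. Of the 21 it was in 2, of Slc36a1 and Slc38a7. Capitals mark these letters in the stretches below, each given 5′ to 3′ on the strand of the gene. A match is a description of the letters and not a bound site.
Slc36a1 (chr11:55204280-55204349, plus strand, from -60 to 10 around the start): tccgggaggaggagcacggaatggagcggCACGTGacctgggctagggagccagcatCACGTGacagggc
Slc38a7 (chr8:95853482-95853551, minus strand, from -60 to 10 around the start): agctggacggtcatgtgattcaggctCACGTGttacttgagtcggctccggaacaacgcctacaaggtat
Slc3a2 (chr19:8714018-8714097, minus strand, 80 bases beginning at -200 from the start): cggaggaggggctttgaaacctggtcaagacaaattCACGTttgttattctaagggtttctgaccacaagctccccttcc
Slc7a7 (chr14:54417935-54418104, minus strand, from -160 to 10 around the start): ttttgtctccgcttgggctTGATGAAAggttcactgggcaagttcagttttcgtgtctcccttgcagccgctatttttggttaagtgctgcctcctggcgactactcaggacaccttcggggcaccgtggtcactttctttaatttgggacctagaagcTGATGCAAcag
Both marked places of Slc36a1 are the E-box, and the one nearer the gene runs across the transcript start. In Slc3a2 the letters CACGT are ACGTG read on the opposite strand. The Slc7a7 window lies at the most upstream of its starts in that table, not at the start of the transcript in the TPM table.

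The libraries held 13.97 to 15.06 M reads in genes. Nfil3 stood at 133, 134 and 141 TPM in TG libraries, against 117, 120 and 119 TPM in WT libraries. Macrophage markers summed to 16985 to 17069 TPM in TG and 17656 to 17827 TPM in WT libraries, with none of 13 at 0, while 5 of the 13 rose and 6 fell. Markers of other cells were present as well. Colon epithelial markers summed to 668 to 671 TPM in TG and 1137 to 1138 TPM in WT libraries, and 10 of 15 fell while 1 rose. Neutrophil markers summed to 494 to 552 TPM in TG and 1182 to 1218 TPM in WT libraries, with 8 of 9 tested lower. Pancreatic acinar markers summed to 112 to 120 TPM in TG and 32.3 to 41.4 TPM in WT libraries, with 15 of 15 tested higher. Fibroblast and smooth muscle markers were lower for 5 of 11 tested and endothelial markers for 5 of 7, with none higher. T cell, NK cell and innate lymphoid markers were higher for 5 of 10 and erythrocyte and platelet markers for 4 of 6, with none lower. In such bulk samples fewer cells of a type and less RNA per cell cannot be told apart, and the part of these cells in the results on transporters was not tested.

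Of the 63 rows, 22 reached a group mean of 1 TPM and were tested. Between groups 7 members fell in TG and 3 rose (limma-trend on log2(TPM + 1), adjusted over all genes, adjusted p below 0.05). The falls were in Slc3a2, Slc7a7, Slc1a5, Slc38a1, Slc38a2, Slc6a8 and Slc6a14, and the rises in Slc7a4, Slc36a1 and Slc43a2. The 10 called members thus made up 45.5% of those tested, against 21.9% of all 12633 genes tested. Lower calls were 31.8% of members against 13.2% of all genes, and higher calls 13.6% against 8.71%. Of the 13 members whose mean reached 10 TPM, 53.8% were called and 38.5% were lower, against 30.3% and 18.8% of all genes at that level. The changes were small. The fitted log2 fold changes of the called members ran from 0.11 to 0.52 in size, with a median of 0.22, against a median of 0.31 over all called genes. With a higher mean at least 25% above the lower one as well, 4 members were called (18.2%, against 11.1% of all genes). Groups did not overlap for 15 members (68.2%, against 39.3% of all genes). A two-sided exact permutation of libraries gave p = 0.10 for each of these 15, the lowest p open to 3 against 3. The median log2 fold change of the 22 members was -0.12, against -0.01 over all genes.

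**Figure D1:**
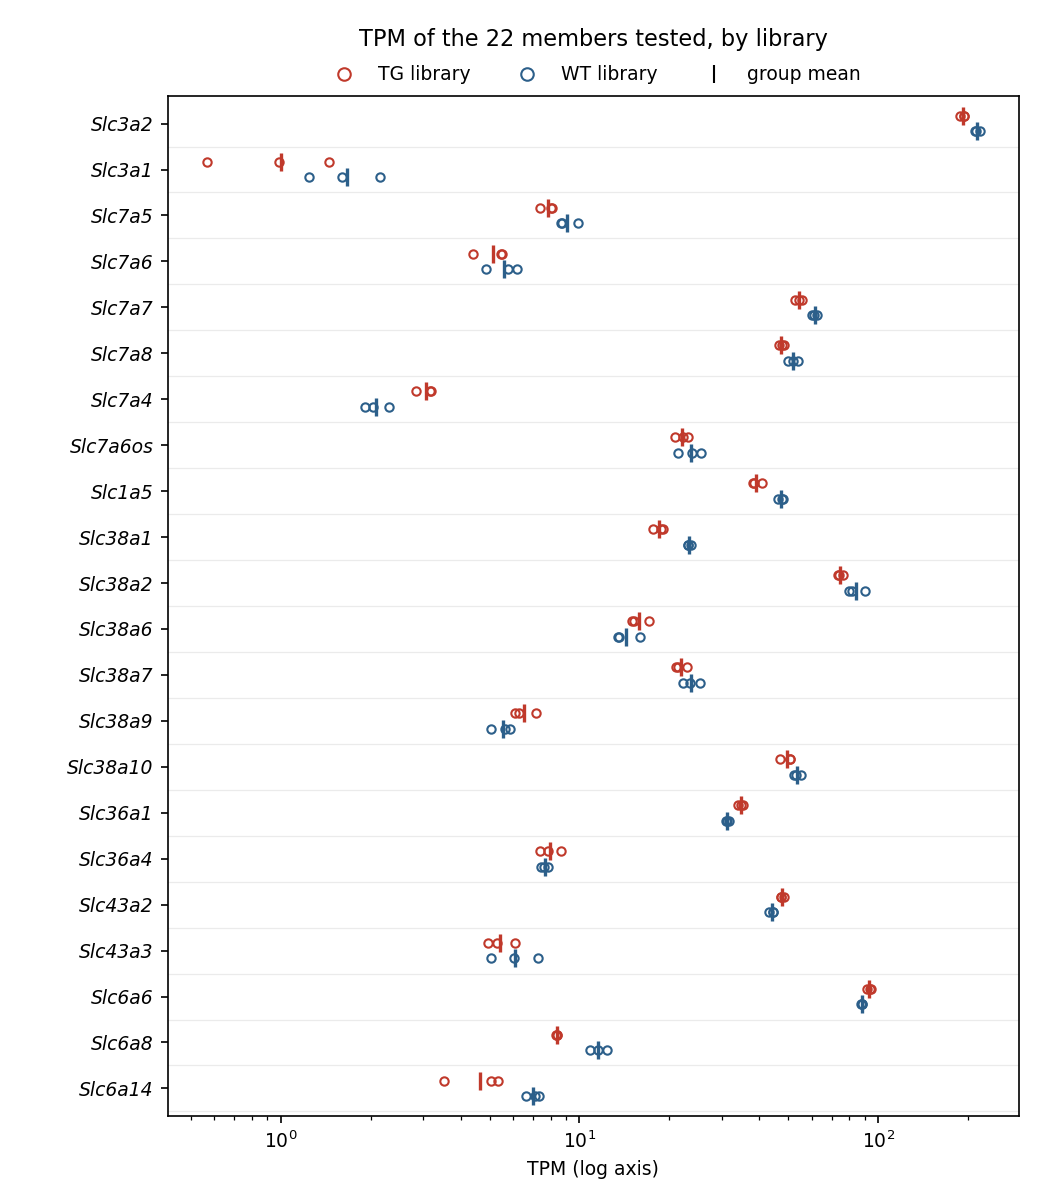
TPM on a log axis (horizontal) of the 22 members tested, by family (vertical), with TG libraries above WT libraries in each row. Circles are single libraries and ticks are means of 3. Slc3a2 stands apart at 188 to 219 TPM, and the groups are separate for 15 members.

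**Figure D2:**
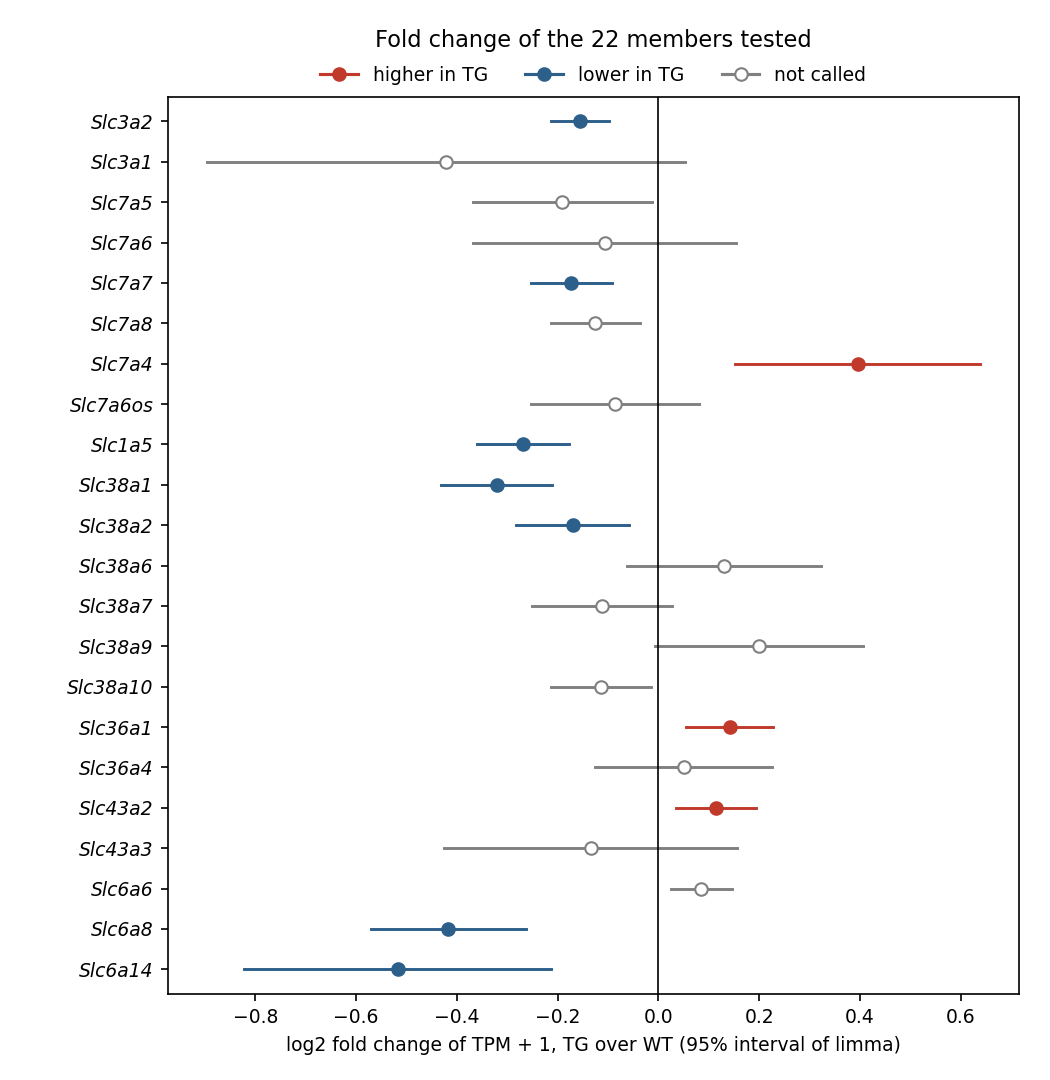
Log2 fold change of TPM + 1, TG over WT, for the same 22 members, with the 95% interval of limma. Filled points passed an adjusted p below 0.05: 7 lie below 0 and 3 above it.

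Slc3a2, the heavy chain shared by most heteromeric carriers and a partner of integrins, was the most abundant member. It had 194, 194 and 188 TPM in TG libraries, against 210, 219 and 212 TPM in WT libraries. Every TG library lay below every WT library, and the ratio of means was 0.90 (log2 fold change -0.16 ± 0.025 SE, limma adjusted p = 0.00343). Slc3a2 lies on chromosome 19 at 8706882 to 8713897, minus strand (NM_008577, mm10), and its value rests on 19013 reads in TG and 20614 reads in WT libraries. Slc3a1, the heavy chain of the renal and intestinal cystine carrier, averaged 1.001 ± 0.445 TPM in TG and 1.66 ± 0.457 TPM in WT libraries (SD, n = 3 each; limma adjusted p = 0.189). It rests on 88 and 144 reads, and 26.5% of its annotated exon bases overlap Prepl on the other strand.

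Of the light chains, Slc7a7 and Slc7a8 carried most of the transcript. Slc7a7 encodes a light chain of system y+L that exports cationic amino acids such as arginine in exchange for neutral ones. It had 55.5, 52.6 and 54.4 TPM in TG libraries, against 62.4, 59.98 and 61.2 TPM in WT libraries. The groups did not overlap, and Slc7a7 fell by 0.17 on the log2 scale (SE 0.035, limma adjusted p = 0.0101). It shares 7.0% of its annotated exon bases with Oxa1l on the other strand. Oxa1l was at 27.7 TPM in TG and 27.2 TPM in WT libraries (limma adjusted p = 0.782).

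Slc7a8, or LAT2, exchanges small and large neutral amino acids and lies on the same chromosome 14, 313 kb from Slc7a7. It had 46.5, 47.5 and 48.3 TPM in TG libraries, against 51.7, 53.7 and 50.04 TPM in WT libraries. The groups did not overlap, but the difference did not pass the test (log2 fold change -0.13, 95% interval -0.21 to -0.04, limma adjusted p = 0.0515). It did pass in the authors' deposited table, with a log2 fold change of -0.16 (adjusted p = 0.000125).

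Slc7a5, or LAT1, which imports leucine, tryptophan and other large neutral amino acids, was much less abundant. It had 7.395, 8.09 and 8.04 TPM in TG libraries, against 8.71, 8.66 and 9.92 TPM in WT libraries. Its log2 fold change was -0.19 with a 95% interval of -0.37 to -0.01 (limma adjusted p = 0.118). Slc7a6, of system y+L like Slc7a7, averaged 5.13 ± 0.622 TPM in TG and 5.597 ± 0.676 TPM in WT libraries (SD, n = 3 each; limma adjusted p = 0.548).

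The 4 tested light chains together came to 114, 114 and 116 TPM in TG libraries, against 129, 127 and 127 TPM in WT libraries. The ratio of Slc3a2 to this sum was 1.70, 1.71 and 1.62 in TG libraries, against 1.64, 1.72 and 1.67 in WT libraries. The means of 1.68 ± 0.049 and 1.67 ± 0.043 differed by 0.0011, less than the spread within either group (exact two-sided permutation p = 1.00, n = 3 each). Within the light chains, Slc7a7 made up 47.3% in TG and 47.9% in WT libraries, Slc7a8 41.4% and 40.6%, Slc7a5 6.84% and 7.13%, and Slc7a6 4.47% and 4.38%. None of these 4 shares separated the groups (exact two-sided permutation p = 0.50 to 0.80). Slc7a11, also a light chain of Slc3a2, is outside the rule and not in these sums.

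**Figure D3:**
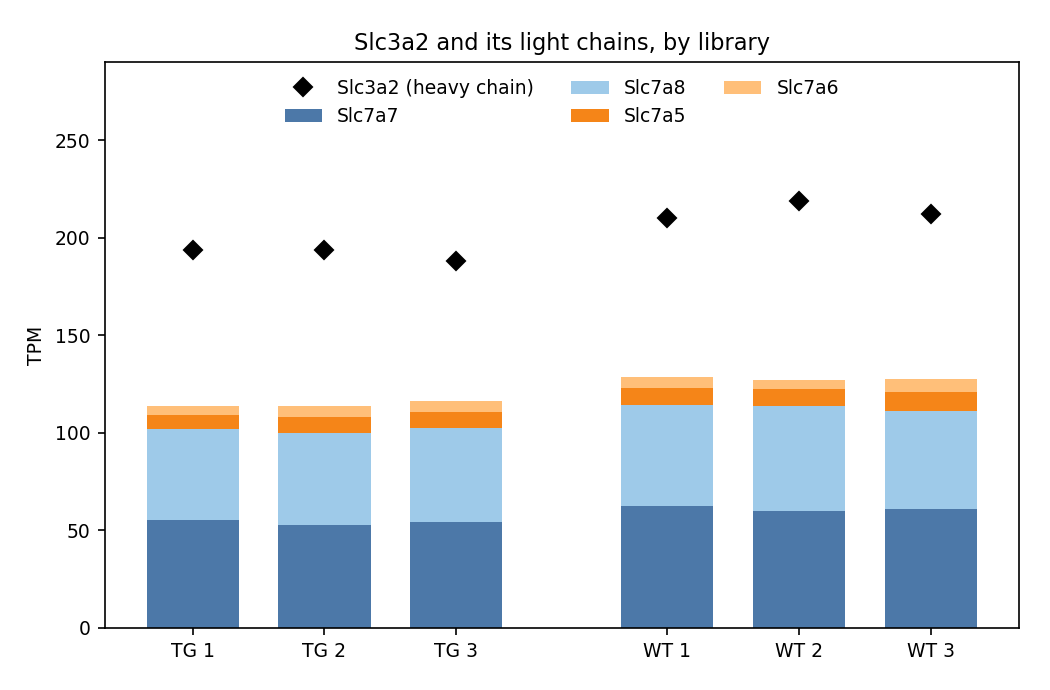
TPM (vertical) of the 4 light chains as stacked bars and of the heavy chain Slc3a2 as diamonds, for the 3 TG libraries on the left and the 3 WT libraries on the right. Bars reach 114 to 116 TPM in TG and 127 to 129 TPM in WT libraries, and Slc3a2 is lower in TG to a like degree.

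The other light chains were at low levels. Slc7a9, the partner of Slc3a1, averaged 0.304 TPM in TG and 0.174 TPM in WT libraries. Slc7a13, known from kidney, averaged 0.779 and 0.239 TPM, on 65 reads in TG and 19 in WT libraries. TG replicate 2 had the same 0.382 TPM as WT replicate 1, so its groups touched. Slc7a15 stood at 0.381 and 0.416 TPM, Slc7a10 at 0.026 and 0 TPM, and Slc7a12 was listed at 0 in all 6 libraries.

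Among the Slc7 carriers that work without a heavy chain, Slc7a4 was the one member tested. Its product resembles the cationic carriers, although transport by it has not been clearly shown. It had 2.83, 3.15 and 3.18 TPM in TG libraries, against 1.92, 2.04 and 2.30 TPM in WT libraries. The ratio of means of 1.47 was the highest among the 22 (log2 fold change 0.40 ± 0.105 SE, limma adjusted p = 0.0319), on 381 and 253 reads. The call was lost in 7 of its 12 alternatives, with an adjusted p of 0.0526 to 0.103 without 1 TG replicate and of 0.0836 and 0.0776 without WT replicate 1 or 2. In the authors' deposited table its log2 fold change was 0.43 (adjusted p = 0.0543). Slc7a4 shares 13.3% of its annotated exon bases with P2rx6 on the other strand, and P2rx6 rose as well, at 2.83 TPM in TG and 1.69 TPM in WT libraries (limma adjusted p = 0.0156). The labels do not describe the library kit as keeping strand; without strand, reads from the shared part cannot be told apart. Slc7a3 averaged 0.066 TPM in TG and 0.1003 TPM in WT libraries, and Slc7a14 0.0087 and 0 TPM. The neighbouring gene Slc7a6os, whose yeast counterpart helps RNA polymerase II into the nucleus, was at 22.1 and 23.6 TPM (limma adjusted p = 0.445).

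The glutamine carriers Slc1a5, Slc38a1 and Slc38a2, known from the plasma membrane, fell. Slc1a5, or ASCT2, exchanges glutamine, serine and other neutral amino acids. It had 38.01, 40.7 and 38.5 TPM in TG libraries, against 47.9, 46.2 and 47.7 TPM in WT libraries. No TG library reached the lowest WT value, and the mean was 1.21-fold lower in TG (log2 fold change -0.27 ± 0.040 SE, limma adjusted p = 0.00245). Slc1a5 lies on chromosome 7 at 16781346 to 16798274, plus strand (NM_009201, mm10). It was the 1 tested member of the 7 in its family. Slc1a4, which exchanges alanine, serine and cysteine, averaged 0.604 TPM in TG and 0.707 TPM in WT libraries. The glutamate carriers Slc1a1, Slc1a2 and Slc1a3 had group means of 0.121 to 0.477 TPM, and Slc1a6 and Slc1a7 rested on 4 reads or fewer.

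Slc38a1, or SNAT1, brings glutamine and other small neutral amino acids in with sodium. It had 17.6, 19.0 and 18.7 TPM in TG libraries, against 23.0, 23.1 and 23.7 TPM in WT libraries. The gap between the groups was wider than the spread within either, and the mean was 1.26-fold lower in TG (log2 fold change -0.32 ± 0.048 SE, limma adjusted p = 0.00261). Slc38a1 lies on chromosome 15 at 96571418 to 96642343, minus strand (NM_001166456, mm10).

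Slc38a2, or SNAT2, the system A carrier that cells raise when amino acids are short, lies 45 kb from Slc38a1 on the same strand. It had 73.9, 76.3 and 73.1 TPM in TG libraries, against 81.8, 79.7 and 90.4 TPM in WT libraries. The groups did not overlap, but WT replicate 3 stood above the other WT libraries. Slc38a2 fell by 0.17 on the log2 scale (95% interval -0.28 to -0.06, limma adjusted p = 0.0415). This call was lost in 9 of 13 alternatives, with an adjusted p of 0.0723 without WT replicate 3, 0.0649 without WT replicate 1, and 0.0707 to 0.119 without 1 TG replicate. The other scalings ended it too (adjusted p = 0.0877 with upper-quartile scaling, 0.0589 with median-ratio scaling). Slc38a4, the third gene of that stretch of chromosome 15 and a carrier known from liver, averaged 0.052 TPM in TG and 0.035 TPM in WT libraries.

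The Slc38 carriers known from the lysosome did not pass the test. Slc38a9, which senses arginine at the lysosome and signals to mTORC1, had 6.08, 7.14 and 6.28 TPM in TG libraries, against 5.86, 5.07 and 5.65 TPM in WT libraries. Its groups did not overlap, with a log2 fold change of 0.20 and a 95% interval of -0.01 to 0.41 (limma adjusted p = 0.154). In the authors' deposited table it was called higher, with a log2 fold change of 0.18 (adjusted p = 0.0125). Slc38a7 releases glutamine and asparagine from the lysosome. It averaged 21.8 ± 0.923 TPM in TG and 23.7 ± 1.58 TPM in WT libraries (SD, n = 3 each). Its groups overlapped, and the difference did not pass (limma adjusted p = 0.230). Slc38a7 was called lower in the authors' deposited table, with a log2 fold change of -0.16 (adjusted p = 0.0263).

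Slc38a10, a widely expressed family member, had 50.8, 50.6 and 46.9 TPM in TG libraries, against 55.2, 52.3 and 53.2 TPM in WT libraries. Each TG value lay below each WT value, with a log2 fold change of -0.11 and a 95% interval of -0.21 to -0.02 (limma adjusted p = 0.0976). Of 13 alternatives 1 called Slc38a10 lower, voom on reads (adjusted p = 0.0117). The authors' deposited table also called it lower, with a log2 fold change of -0.14 (adjusted p = 0.000451). Slc38a6, a family member known from brain, averaged 15.8 TPM in TG and 14.3 TPM in WT libraries (limma adjusted p = 0.310). The remaining 5 of the 11 Slc38 rows were under the filter, and Slc38a3, the system N carrier of liver and kidney, was listed at 0 in all libraries.

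The lysosomal carrier Slc36a1, or PAT1, which moves small amino acids out with protons, was higher in TG. It had 33.9, 35.2 and 34.7 TPM in TG libraries, against 31.0, 31.1 and 31.7 TPM in WT libraries. The groups did not overlap, and the mean was 1.11 times that of WT (log2 fold change 0.14 ± 0.037 SE, limma adjusted p = 0.0313). Each of the 6 fits without 1 library ended the call, at an adjusted p of 0.0507 to 0.099. In the authors' deposited table its log2 fold change was 0.10 (adjusted p = 0.0338). Slc36a1 lies on chromosome 11 at 55204340 to 55236330, plus strand (NM_153139, mm10). Slc36a4 averaged 7.96 ± 0.663 TPM in TG and 7.64 ± 0.181 TPM in WT libraries (SD, n = 3 each; limma adjusted p = 0.687), and its log2 fold change of 0.05 turned to -0.0072 without TG replicate 2. Slc36a2 and Slc36a3, on the same chromosome, had group means of 0.150 to 0.518 TPM.

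Slc43a2, or LAT4, which lets large neutral amino acids pass down their gradient, had 47.1, 48.5 and 47.3 TPM in TG libraries, against 43.003, 44.5 and 44.3 TPM in WT libraries. All TG values exceeded all WT values, by 1.08-fold in the means (log2 fold change 0.11 ± 0.034 SE, limma adjusted p = 0.0490). The call was lost in 8 of 13 alternatives, among them each library left out in turn (adjusted p = 0.0793 to 0.141). The authors' deposited table gave 0.06 (adjusted p = 0.134). Slc43a3 averaged 5.44 ± 0.575 TPM in TG and 6.11 ± 1.09 TPM in WT libraries (SD, n = 3 each; limma adjusted p = 0.493). Slc43a1, or LAT3, was under the filter at 0.363 and 0.382 TPM.

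In the Slc6 family 3 of 22 rows were tested, and 2 fell. Slc6a6, the taurine carrier, was the second most abundant member, with 93.8, 94.7 and 91.9 TPM in TG libraries, against 88.1, 87.5 and 88.6 TPM in WT libraries. The groups did not overlap, but the difference did not pass (log2 fold change 0.09, 95% interval 0.02 to 0.15, limma adjusted p = 0.0534). It passed in 4 of 13 alternatives: both other scalings (adjusted p = 0.013 and 0.0249), no filter (0.0462) and voom on reads (0.000836). In the other 9 it did not pass, at an adjusted p of up to 0.146. In the authors' deposited table its log2 fold change was 0.04 (adjusted p = 0.187).

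Slc6a8, the creatine carrier, had 8.37, 8.40 and 8.42 TPM in TG libraries, against 10.8, 12.3 and 11.5 TPM in WT libraries. The TG libraries were nearly equal, more closely than the counting error of 407 to 441 reads each would give, and all lay below the WT libraries. The mean was 1.38-fold lower in TG (log2 fold change -0.42 ± 0.066 SE, limma adjusted p = 0.00345). Slc6a8 lies on chromosome X at 73673133 to 73682500, plus strand (NM_001142810, mm10), and rests on 1281 reads in TG and 1716 reads in WT libraries.

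Slc6a14, a broad carrier of neutral and cationic amino acids that is known from colonic epithelium, had 3.52, 5.05 and 5.35 TPM in TG libraries, against 7.07, 6.61 and 7.30 TPM in WT libraries. It was the lowest of the 7 falls in ratio, 1.51-fold lower in TG, with TG replicate 1 below the other TG libraries (log2 fold change -0.52 ± 0.132 SE, limma adjusted p = 0.0274). The call was lost in each fit without 1 WT replicate (adjusted p = 0.0554 to 0.0782) and without a filter (0.0642). The colonocyte marker Car1 was at 164 TPM in TG and 497 TPM in WT libraries, and Krt20 at 11.4 and 26.6 TPM and Epcam at 36.6 and 42.1 TPM, with none of the 15 epithelial markers at 0. Other epithelial markers had the higher mean in TG, Tff3 at 58.2 TPM in TG and 47.5 TPM in WT libraries, Krt18 at 19.5 and 16.8 TPM and Muc2 at 36.1 and 35.9 TPM. The part of epithelial transcripts in the value of Slc6a14 was not tested.

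The other Slc6 rows were at or near 0. The monoamine carriers Slc6a2, Slc6a3 and Slc6a4 averaged at most 0.209 TPM in a group. Slc6a19, the neutral amino acid carrier of the small intestinal brush border, had 8 reads in TG and 0 in WT libraries. In all, 41 of the 63 rows stayed under the filter, with group means of at most 0.779 TPM, and 9 of them were listed at 0 in every library. For these 9 rows the upper limit at 0 reads, taken as 3 reads, is 0.0561 to 0.159 TPM per library and covers counting error only. The authors' deposited table holds 7 of these 9 rows, 4 of them with a mean log2 value above 0, and calls Slc6a5 (adjusted p = 0.00483) and Slc38a3 (0.0498) higher in TG. The deposited tables thus differ on these rows, and the reason was not tested.

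Summed over the 60 carrier and heavy chain rows, transcripts came to 739, 756 and 736 TPM in TG libraries, against 790, 799 and 804 TPM in WT libraries. The groups did not overlap, at a ratio of means of 0.93, while Slc3a2 made up 25.8% of the sum in TG and 26.8% in WT libraries (exact two-sided permutation p = 0.10 for each, n = 3 per group). With upper-quartile scaling the ratio of the sums was 0.96. The 13 members of at least 10 TPM varied within a group by a coefficient of variation of 0.616% to 10.04%, and the 9 below it by 0.331% to 44.4%.

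Of the 10 called members, 5 kept the call in every alternative: Slc1a5, Slc3a2, Slc6a8, Slc7a7 and Slc38a1. The other 5, among them all 3 rises, lost it in at least 1. Over all genes 1100 were higher and 1666 lower, or 39.8% higher. With upper-quartile scaling the split was 1425 and 1315, or 52.0% higher, and members then split into 4 higher and 6 lower. By the authors' deposited table, 10 of the 22 members were lower and 2 higher, Slc36a1 and Slc38a9, at an adjusted p below 0.05. These calls made up 54.5% of the 22, against 32.6% of the genes tested here. All 22 had the same sign there. Under the filter it called 5 more members, all higher in TG (Slc6a4, Slc6a5, Slc7a13, Slc38a3 and Slc38a11), so that over its 61 members 10 were lower and 7 higher. The share called over all 24421 rows of that table was not counted, so these counts have no background beside them.

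**Figure D4:**
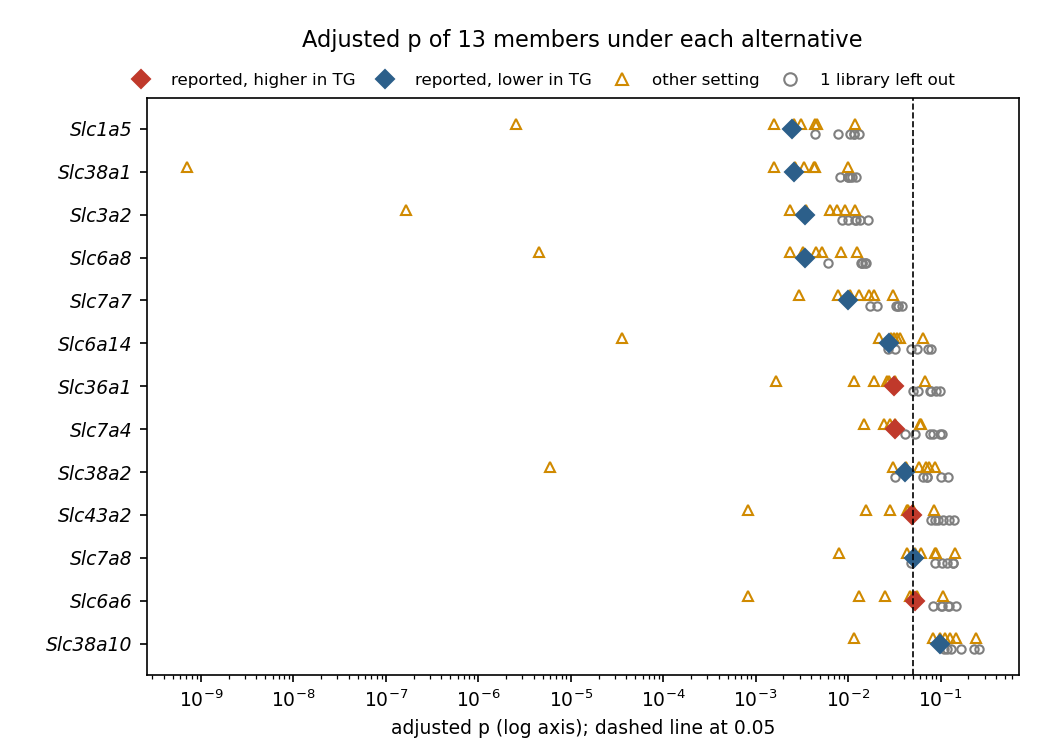
Adjusted p (horizontal, log axis) of the 10 called members and the next 3 by p. Diamonds are the reported values, triangles other settings and circles fits without 1 library; the dashed line is 0.05. Slc1a5, Slc38a1, Slc3a2, Slc6a8 and Slc7a7 stay left of the line in every fit, and the 3 rises cross it.

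Related genes were counted in lists. Of 15 tested transporters of amino acids and related solutes outside the 7 families, 2 rose and 2 fell (26.7% called, against 21.9% of all genes), with a median log2 fold change of 0.01. Slc15a2, which takes up small peptides, averaged 14.8 ± 0.461 TPM in TG and 8.57 ± 0.262 TPM in WT libraries (SD, n = 3 each; limma adjusted p = 0.000114). Slc15a3, a lysosomal peptide and histidine carrier, was at 207 ± 3.09 TPM in TG and 246 ± 3.27 TPM in WT libraries (SD, n = 3 each; limma adjusted p = 0.000193). Slc29a3, which carries nucleosides and not amino acids, rose to 48.4 TPM in TG, against 40.1 TPM in WT libraries. Sfxn1, the mitochondrial serine carrier, fell to 10.5 TPM in TG, against 12.4 TPM in WT libraries (limma adjusted p = 0.0478), a call lost in 9 of 13 alternatives and in 5 of the 6 fits without 1 library (adjusted p up to 0.135).

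Of 34 tested genes of amino acid sensing and mTORC1, 2 rose and 0 fell by limma, where 3 were lower at an unadjusted p below 0.05 and 1 by voom on reads. The 5.88% called stand against 21.9% of all genes. The rises were in 2 of the 3 sestrins, which hold mTORC1 back. Sesn3 averaged 5.65 ± 0.471 TPM in TG and 3.15 ± 0.327 TPM in WT libraries (SD, n = 3 each; limma adjusted p = 0.00232), and Sesn1 42.5 ± 1.98 TPM in TG and 35.7 ± 0.126 TPM in WT (limma adjusted p = 0.0055, n = 3 each). The third, Sesn2, averaged 13.8 TPM in TG and 12.955 TPM in WT libraries (limma adjusted p = 0.438). Sec13 and Lamtor2 followed by p, at 53.8 and 59.5 TPM for Sec13 (limma adjusted p = 0.0694) and 88.7 and 99.2 TPM for Lamtor2 (0.104). The median of this list was 0.03.

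Of 19 tested enzymes of glutamine, glutamate and aspartate, 1 rose and 3 fell (21.1% called, against 21.9% of all genes; median -0.05). Glul, which makes glutamine, was at 266 ± 4.48 TPM in TG and 217 ± 1.33 TPM in WT libraries (SD, n = 3 each; limma adjusted p = 6.1e-05). Gclm and Gclc, the subunits of the enzyme that begins glutathione synthesis, fell to 9.33 and 11.3 TPM in TG, against 13.4 and 13.9 TPM in WT libraries, and the transaminase gene Gpt fell to 4.78 TPM against 6.30 TPM. Without 1 library the call of Gclc was lost in 4 of 6 fits and that of Gpt in 5, and the falls in this list numbered 1 without TG replicate 1, TG replicate 3 or WT replicate 3 and with the replicate block. Of 16 enzymes of serine, glycine and one-carbon metabolism, 1 fell and 0 rose by limma, with 1 higher at an unadjusted p below 0.05 and 1 by voom (6.25% called, against 21.9% of all genes; median 0.02). The fall was in Gcsh, of the glycine cleavage system, at 21.6 TPM in TG and 26.0 TPM in WT libraries (limma adjusted p = 0.0227). It was lost in 5 of the 6 fits without 1 library, at an adjusted p of up to 0.0681. Psat1, which 2 of the other lists also hold, Cbs and Cth followed, at limma adjusted p = 0.0696, 0.0699 and 0.119.

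Of 18 branched-chain and tryptophan enzymes, 1 rose and 0 fell by limma, with 0 lower at an unadjusted p below 0.05 and 0 by voom (5.56% called, against 21.9% of all genes; median 0.11). The rise was in Haao, of the kynurenine pathway, at 5.01 TPM in TG and 3.33 TPM in WT libraries (limma adjusted p = 0.0293). That call was lost in 6 of 13 alternatives, among them the fits without TG replicate 1 or 2 and WT replicate 1 or 3 (adjusted p up to 0.0982). Kynu, Ivd and Ppm1k followed at limma adjusted p = 0.139, 0.163 and 0.194.

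Genes of the amino acid response, through which Atf4 raises several transporters when amino acids run short, moved both ways: 5 of 25 rose and 6 fell (44% called, against 21.9% of all genes; median -0.05). Atf3 averaged 901 ± 17.4 TPM in TG and 675 ± 1.06 TPM in WT libraries, and Ppp1r15a, which ends translational arrest, 217 ± 2.58 and 173 ± 2.11 TPM (SD, n = 3 each). Ddit4, an mTORC1 inhibitor that hypoxia also raises, fell to 48.1 ± 1.65 TPM in TG, against 88.6 ± 5.40 TPM in WT libraries. Cebpb fell to 543 ± 18.4 TPM in TG, against 900.1 ± 65.9 TPM in WT libraries (SD, n = 3 each). The highest limma adjusted p of these 4 genes was 5.8e-05.

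**Figure D5:**
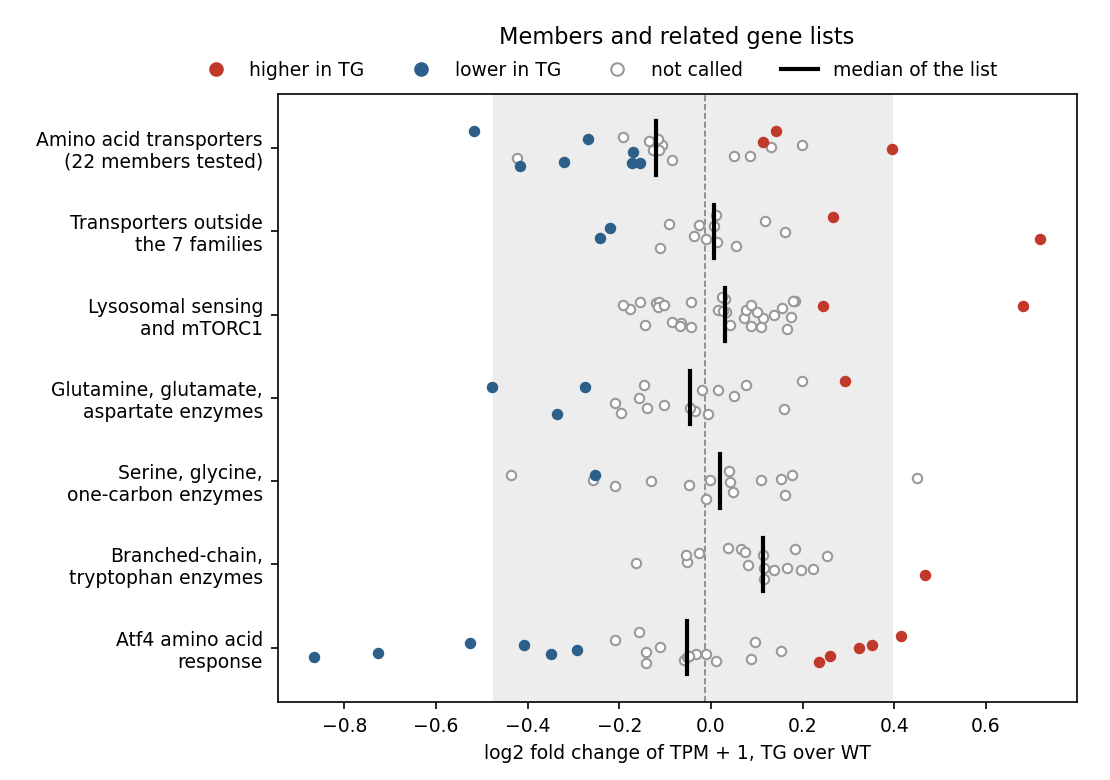
Log2 fold change of TPM + 1, TG over WT (horizontal), of the 22 members and of 6 related gene lists (vertical). Points are genes, filled where the adjusted p was below 0.05, bars are list medians, the grey band spans the 5th to 95th percentile of all genes (-0.47 to 0.40) and the dashed line is their median. The members' median of -0.12 lies left of those of the 6 lists (-0.05 to 0.11).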

How the data were processed

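The submitters' processing notes name bcl2fastq, STAR, HOMER 4.11.1, DESeq2 and the build mm10, without settings. The authors deposited TPM per RefSeq transcript (25124 rows), and a table of log2 values, log2 fold changes (TG over WT by their sign), p-values and adjusted p-values (24421 rows). The genotype fields of TG replicates 2 and 3 name E4BP5 and E4BP6; the titles, which name E4BP4, set the groups.

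For every gene that reached a group mean of 1 TPM, log2(TPM + 1) was tested with limma-trend (limma 3.58.1, R 4.3.3), genotype as the single term and Benjamini-Hochberg adjustment. Fold changes on this scale understate those of low genes. The code was tested on simulated reads that held counting error only, while the replicates here varied more than that. That run does not show how well changes of this size are found. TPM times exon length gave whole reads for 100% of values checked up to 1000 reads (tolerance 0.1 reads); the sums are 79.5% to 81.3% of the library totals in the headers. These reads gave depth and the voom alternative.

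Members, lists and tests were chosen with earlier results of these data known. Values per library are given for called members whose means differ by at least 25% and the 8 most abundant, by rule; Slc36a1, Slc7a5 and Slc38a9, the marker genes, Sesn2 and the stretches of promoter were added after values were seen. The 4 members of each related list with the lowest p are named. Alternatives covered the pseudocount (0.1), filters, scaling, voom, a replicate block and each library left out. Exon overlaps come from GENCODE M21 on GRCm38, over all annotated transcripts.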

Additional observations from a re-analysis of the deposited data

How the results depend on the processing

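Over 13 alternatives to the fit, 283 of 284 recomputed member fold changes kept their direction; Slc36a4 ran from -0.0072 (without TG replicate 2) to 0.0973 with 1 library left out. Members called lower numbered 5 to 6 with 1 library left out. Members called higher numbered 0 to 1 there. At an unadjusted p below 0.05, 4 to 5 were higher and 8 to 11 lower of 22. Of 12628 to 12660 genes tested in these fits, 3836 to 4053 passed that level in either direction. Voom on reads called 5 members higher and 10 lower, where 1637 of all 12633 genes were higher and 2074 lower. Replicate numbers did not pair the libraries (correlations of deviations -0.013, -0.043 and 0.032, and 1 of 3 TG libraries was nearest to its own number). With the replicate block 0 members were higher and 6 lower, while 922 of all 12633 genes were called higher and 1457 lower. At an unadjusted p below 0.05 there, 4 members were higher and 11 lower of 22, against 4230 of the 12633 genes in either direction. The cause of these differences was not tested. All genes called higher numbered 704 to 883 and lower 1231 to 1373 with 1 library left out (704 without TG replicate 2 and 721 without TG replicate 3, against 1100). Upper-quartile scaling gave a ratio of summed carriers of 0.957 and leaving out 1 library 0.925 to 0.937. The Slc3a2 to light-chain difference ranged from -0.0182 to 0.0295. Of 156 list counts recomputed, 130 stayed within 1.5 times. The list counts in the reported fit were 0 to 6, and counts of 0 that stayed at 0 are among the 130. The fewest reads among tested members were those of Slc3a1, 88 in TG and 144 in WT libraries.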
